A study of Mus musculus with 6 samples.

Results

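The Lgr receptors, the R-spondins that bind them and the stem cell genes read beside them were examined as 10 genes: the receptors Lgr4, Lgr5 and Lgr6, the ligands Rspo1, Rspo2, Rspo3 and Rspo4, and the target or marker genes Ascl2, Tnfrsf19 and Cd44. They were taken by gene symbol from 18193 genes measured. The rule used no difference between the groups, but the list was drawn up with earlier results of these data known. Uterine RNA of female mice at 4 weeks of age was hybridized to 6 Affymetrix arrays, on which sets of short probes (probe sets) read each transcript. There were 3 control and 3 mutant arrays. The mutant was Pgr cre/+ Ctnnb1f(ex3)/+, in which Cre recombinase made from the Pgr gene acts in Pgr-expressing cells and removes exon 3 of Ctnnb1. This leaves a β-catenin that is not marked for degradation. The control is called wild type in the labels and consists of Pgr cre/+ and Ctnnb1 f(ex3)/+ mice in the methods. By the methods the RNA of 3 uteri per genotype was pooled, while the labels number 3 samples per group. Each p-value therefore rests on the spread from array to array alone. Some of that spread may be technical, and how much was not tested. The recombined cells were not separated from other cells of the uterus. Fewer cells of a type and less RNA per cell cannot be told apart in whole tissue.

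R-spondins are secreted proteins that strengthen Wnt signaling. They bind an Lgr receptor together with the membrane ligases Znrf3 or Rnf43, which otherwise remove Frizzled receptors from the cell surface, and so they raise the number of Wnt receptors. Lgr5 and Ascl2 mark stem cells at the base of intestinal crypts, and Lgr5, Ascl2, Tnfrsf19 and Cd44 are known targets of β-catenin in that tissue. Stabilized β-catenin acts below the receptors, so the comparison asks how the transcripts of the receptor arm and of these targets stood in a uterus in which that step is bypassed.

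The arrays had median intensities of 7.23 to 7.42. All 8 genes of uterine identity, among them Pgr and Hoxa11, reached an intensity of 16 (1 higher, 2 lower). Pgr and Emx2 were lower in the mutant uterus (log2 fold changes of -0.97 and -0.62) and Hand2 was higher (1.49). The summed intensity of 14 epithelial markers was 5505 to 6560 in the control and 4280 to 6033 in the mutant uterus (1 higher, 4 lower), that of 10 stromal markers 20649 to 21188 and 18041 to 19555 (2 higher, 1 lower, no overlap of the sums), and that of 8 markers of the myometrium 10342 to 12164 and 10729 to 12139 (none called). It was 1468 to 1665 and 1601 to 1689 for 17 leukocyte markers (1 higher, 2 lower, and 7 below an intensity of 16 on all arrays) and 756 to 790 and 681 to 806 for 7 endothelial markers (1 lower). The sum of 6 adipocyte markers was 178 to 1418 in the control and 2463 to 3875 in the mutant uterus, with no overlap (2 higher, none lower). Control replicate 2 stood apart: its mean log2 intensity over 19 cell cycle genes was 4.04, against 6.08 to 6.66 on the other 5 arrays. The spread among the controls was thus uneven. It was wide in the adipocyte sum (178 to 1418) and in the cell cycle mean (4.04 to 6.55), and narrow in the stromal sum (20649 to 21188). Whether the wide spread came from the RNA or from its handling was not tested.

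In the mutant uterus Tnfrsf19 rose 3.46-fold, Rspo1 fell to 0.307 and Rspo3 to 0.557 of the control level, and Lgr5 was 1.32-fold higher with a call that several settings removed. The other 6 genes, Lgr4, Lgr6, Rspo2, Rspo4, Ascl2 and Cd44, did not pass the test. Thus 2 of 10 genes were higher and 2 were lower at an adjusted p under 0.05 from limma, a linear model fitted across all genes, where 5.61% of all genes were higher and 6.36% were lower. The groups did not overlap for the same 4 genes, 2 higher and 2 lower in the mutant, where 14.9% of all genes lay wholly higher and 17.4% wholly lower. The median log2 fold change was 0.02 over the 10 genes and -0.01 over all genes. The adipocyte markers, higher in the mutant uterus, the epithelial markers, 4 of 14 of which were lower and 1 higher (median log2 fold change -0.35), and the stromal markers, lower by their sums (median log2 fold change -0.28), moved with the genotype beside these 4 calls, and their part in them was not tested. Control replicates 2, 1 and 3 had adipocyte sums of 1418, 988 and 178. In that order Tnfrsf19 stood at 7.74, 7.54 and 7.29 and Rspo1 at 7.22, 7.0 and 6.98. Rspo3 stood at 9.03, 8.81 and 8.67 and Lgr5 at 5.76, 5.47 and 5.48. Control replicate 2 also stood apart in the cell cycle genes, and the part of either in these levels was not tested. Without control replicate 2 all 4 calls held, with log2 fold changes of 1.90 for Tnfrsf19, 0.49 for Lgr5, -1.63 for Rspo1 and -0.75 for Rspo3. All levels are log2 of the deposited intensity, read from the probe set of a gene with the highest mean over the arrays.

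The level of a gene on the arrays set what could be seen. Of the 10 genes, 6 had an intensity of 16 or more (4 on the log2 scale) on every array: Lgr4, Lgr5, Rspo1, Rspo3, Tnfrsf19 and Cd44. Lgr6, Rspo2, Rspo4 and Ascl2 lay below 16 on all 6 arrays, as 62.3 to 62.6% of all probe sets did on each array, and a change there may be understated.

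**Figure D1:**
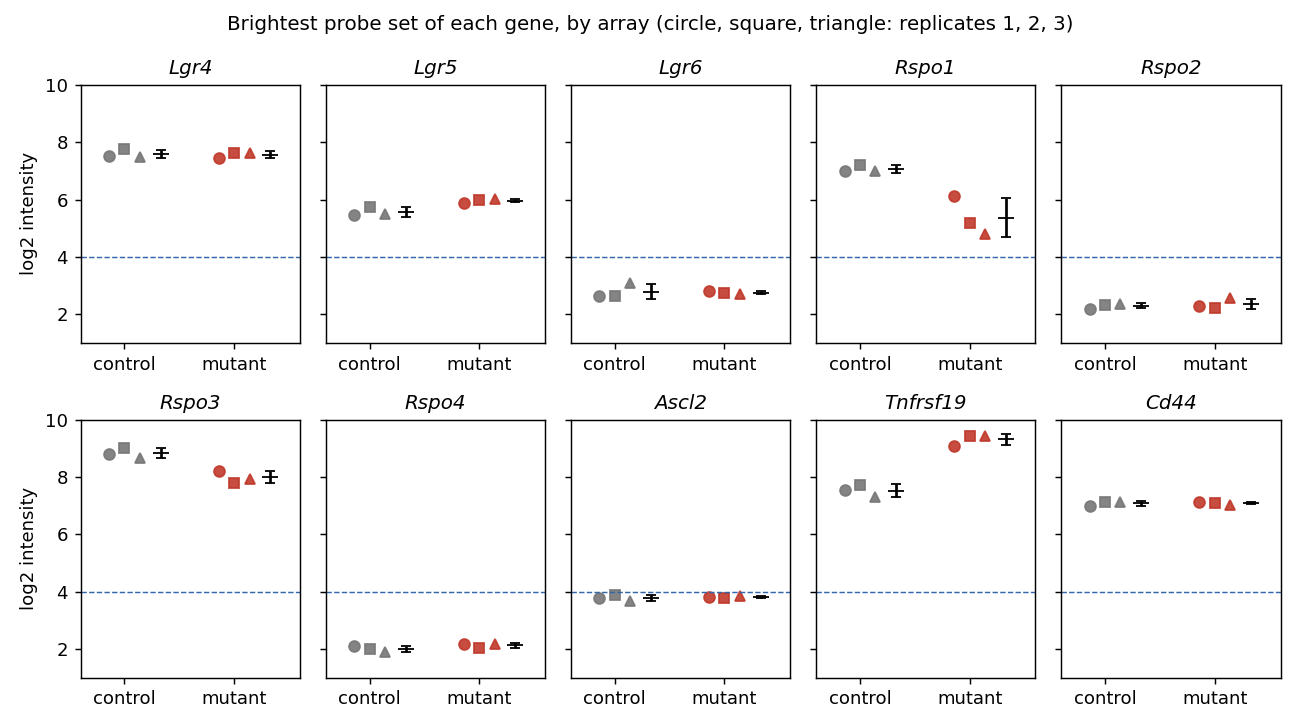
Each panel gives the log2 intensity (y axis) of the brightest probe set of 1 gene by array, in grey for the 3 controls and red for the 3 mutants, with the group mean and SD in black and an intensity of 16 as a dashed line. The mutant arrays lie above all controls for Tnfrsf19 and Lgr5 and below them for Rspo1 and Rspo3, and the groups overlap in the other 6 panels.

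Among the receptors, Lgr5, which marks stem cells of the intestine, had log2 intensities of 5.47, 5.76 and 5.48 on the control arrays, in the order of their replicate numbers, and of 5.89, 5.98 and 6.02 on the mutant arrays. All mutant arrays lay above all controls, and the gap between mutant replicate 1 and control replicate 2 was the narrowest. The means were 5.57 ± 0.16 and 5.97 ± 0.07 (SD, n = 3 arrays each). The log2 fold change of Lgr5 was 0.40 (limma adjusted p = 0.0461, standard error 0.10). Leaving out control replicate 1 or 3, or any 1 mutant replicate, removed the call (0.35 to 0.43 on the log2 scale, limma adjusted p from 0.0661 to 0.162). It was also lost with arrays centred on their medians (0.39, adjusted p = 0.0602), and with the mean of its probe sets the value fell to 0.25 (adjusted p = 0.105).

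Lgr4, the widely expressed receptor of the family, had log2 intensities of 7.53, 7.77 and 7.50 in the control and of 7.45, 7.64 and 7.63 in the mutant uterus. The groups overlapped, and the log2 fold change was -0.03 (95% interval -0.27 to 0.21, adjusted p = 0.902 from limma), so that a change beyond 0.27 in either direction lay outside the interval. The sign of this value turned in 3 settings (0.0039 with array weights, 0.06 without control replicate 2 and 0.03 without mutant replicate 1) and on leaving out both of these replicates (0.12). Lgr6, a receptor known from skin stem cells, stayed between 2.63 and 3.10 in the control and between 2.69 and 2.82 in the mutant uterus, below an intensity of 16. Its log2 fold change was -0.04 (95% interval -0.35 to 0.28), and without control replicate 3, its highest array, it was 0.12.

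Among the ligands, Rspo1 had log2 intensities of 7.0, 7.22 and 6.98 in the control arrays and of 6.11, 5.18 and 4.79 in mutant replicates 1 to 3. The controls lay close together, and the mutant arrays were all lower but spread widely, with replicate 1 nearest to the controls. The mean fell from 7.06 ± 0.13 to 5.36 ± 0.68 (SD, n = 3 arrays each). The Rspo1 log2 fold change was -1.70 (limma adjusted p = 0.012, standard error 0.30), which is 3.25-fold lower with a 95% interval of 2.01-fold to 5.26-fold. This call needed mutant replicate 2, without which the value did not pass (-1.61, adjusted p = 0.0546). A single probe set carries the symbol, so no second reading of Rspo1 was at hand.

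The start of Rspo1 is shown because the gene had the largest fall of the 10. RefSeq places it in GRCm38.p6 at chr4:124986180-124986479 on the plus strand, from 250 bases before to 50 bases after the start, and neither of the motifs searched in these windows (named with Tnfrsf19) occurs in its letters.
Rspo1: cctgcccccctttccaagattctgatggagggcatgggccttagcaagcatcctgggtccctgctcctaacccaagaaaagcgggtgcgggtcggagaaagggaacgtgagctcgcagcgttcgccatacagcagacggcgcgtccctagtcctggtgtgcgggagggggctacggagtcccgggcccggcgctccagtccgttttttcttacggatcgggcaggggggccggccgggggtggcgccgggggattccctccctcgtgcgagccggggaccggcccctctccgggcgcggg

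Rspo3, an R-spondin that also acts in blood vessel development, had log2 intensities of 8.81, 9.03 and 8.67 in the control and of 8.22, 7.80 and 7.95 in the mutant uterus. Each mutant array lay below each control, with replicate 1 again nearest to the controls. The mean fell from 8.83 ± 0.18 to 7.99 ± 0.21 (SD, n = 3 arrays each). The log2 fold change was -0.84 (limma adjusted p = 0.00904, standard error 0.14), or 1.80-fold lower (95% interval 1.44-fold to 2.24-fold). The call held on leaving out each array in turn (-0.96 to -0.75, adjusted p of 0.00608 to 0.0411). With the mean of both its probe sets the value was -0.47 (adjusted p = 0.0505), and the dim probe set lay between 2.27 and 2.83 on all arrays.

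Rspo2, a ligand known from limb and lung development, and Rspo4, known from nail development, were near the bottom of the scale. Rspo2 lay between 2.19 and 2.36 in the control and between 2.23 and 2.57 in the mutant uterus, and Rspo4 between 1.90 and 2.10 and between 2.03 and 2.18. The groups overlapped for both genes. Their log2 fold changes were 0.07 (95% interval -0.19 to 0.32) and 0.13 (95% interval -0.08 to 0.34), and the sign for Rspo2 turned without mutant replicate 3 (-0.04). No difference was detectable at these intensities.

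Among the stem cell genes, Tnfrsf19, also called Troy, encodes a receptor of the tumor necrosis factor receptor family. It had log2 intensities of 7.54, 7.74 and 7.29 in the control and of 9.07, 9.42 and 9.44 in the mutant uterus. No mutant array came near a control array. The mean rose from 7.52 ± 0.23 to 9.31 ± 0.20 (SD, n = 3 arrays each). The log2 fold change was 1.79 (limma adjusted p = 0.000577, standard error 0.15), a 3.46-fold rise with a 95% interval of 2.73-fold to 4.37-fold. Without each array in turn it was 1.67 to 1.91 (adjusted p of 0.000577 to 0.00505). A dimmer probe set of the gene, from 3.31 to 3.56 in the control and from 4.90 to 5.40 in the mutant uterus, gave 1.71 (limma adjusted p = 0.00042 among all probe sets), and the dimmest, between 2.21 and 2.54 on all arrays, gave 0.15 (adjusted p = 0.41 among all probe sets, from limma). Tnfrsf19 therefore rose on the brighter pair of its 3 probe sets.

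Both start sites that RefSeq lists for Tnfrsf19 are shown because it had the largest rise of the 10 genes and because one of them holds a motif match. The letters CTTTGAT and CTTTGAA, a short form of the site bound by TCF/LEF factors with either last base, were searched on both strands; they differ in the last base and so cannot match at the same place on a strand. The windows run from 250 bases before to 50 bases after the start, on the minus strand of GRCm38.p6, at chr14:61037938-61038237 and chr14:61046806-61047105, and capitals mark the match.
Tnfrsf19 start at the lower coordinates: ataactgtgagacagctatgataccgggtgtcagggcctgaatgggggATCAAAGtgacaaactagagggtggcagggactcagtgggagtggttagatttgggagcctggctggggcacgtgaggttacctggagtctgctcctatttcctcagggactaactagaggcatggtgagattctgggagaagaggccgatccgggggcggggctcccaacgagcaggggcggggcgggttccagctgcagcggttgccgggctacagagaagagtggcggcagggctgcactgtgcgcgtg
Tnfrsf19 start at the higher coordinates: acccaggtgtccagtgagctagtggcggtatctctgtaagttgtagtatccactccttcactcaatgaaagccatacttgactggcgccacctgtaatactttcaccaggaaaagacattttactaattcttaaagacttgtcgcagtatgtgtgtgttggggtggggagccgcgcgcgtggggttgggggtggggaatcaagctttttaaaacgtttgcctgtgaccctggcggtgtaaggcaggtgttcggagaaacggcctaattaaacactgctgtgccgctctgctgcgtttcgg
The match in capitals is CTTTGAT read on the opposite strand and begins 202 bases before the start. Of 8 windows of 7 of the 10 genes, 1 held a match to either motif. CTTTGAT occurs in 3.73%, CTTTGAA in 5.14% and either of them in 8.65% of the 32851 windows in the table. A match is a run of letters and not a measured binding site. Lgr5, Rspo2 and Rspo3 had no entry in the table.

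Cd44, the surface receptor for hyaluronan that leukocytes and many epithelial and stromal cells carry, had log2 intensities of 6.97, 7.11 and 7.14 in the control and of 7.12, 7.10 and 7.04 in the mutant uterus. The groups overlapped, and the arrays of both groups lay within a narrow range. The log2 fold change was 0.01 (95% interval -0.18 to 0.20, adjusted p = 0.947 from limma), and it was -0.04 and -0.004 without control replicate 1 and mutant replicate 1. The second bright probe set of Cd44 ran from 6.82 to 7.29 in the control and from 6.89 to 7.01 in the mutant uterus, with a log2 fold change of -0.10 (95% interval -0.39 to 0.19). Ascl2, a transcription factor of intestinal stem cells, lay between 3.69 and 3.88 in the control and between 3.78 and 3.84 in the mutant uterus, below an intensity of 16. Its log2 fold change was 0.02 (95% interval -0.17 to 0.22), and -0.02 without control replicate 3. By its name this probe set (suffix _s_at) may also read transcripts of other genes.

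The 10 genes were read by 22 probe sets in all. Fitted across all 34945 probe sets with 1 gene symbol, 2 of the 22 were higher and 2 were lower, where 4.27% of all probe sets were higher and 4.14% lower. The higher ones were both of Tnfrsf19, and the lower ones were the brightest of Rspo1 and Rspo3. The bright probe set of Lgr5 did not pass in this fit (0.40, adjusted p = 0.0549 from limma). Of the 22, 14 lay below an intensity of 16 on all arrays, at log2 intensities of 1.61 to 3.88. None of these 14 passed or had groups without overlap, and their log2 fold changes ran from -0.10 to 0.24.

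**Figure D2:**
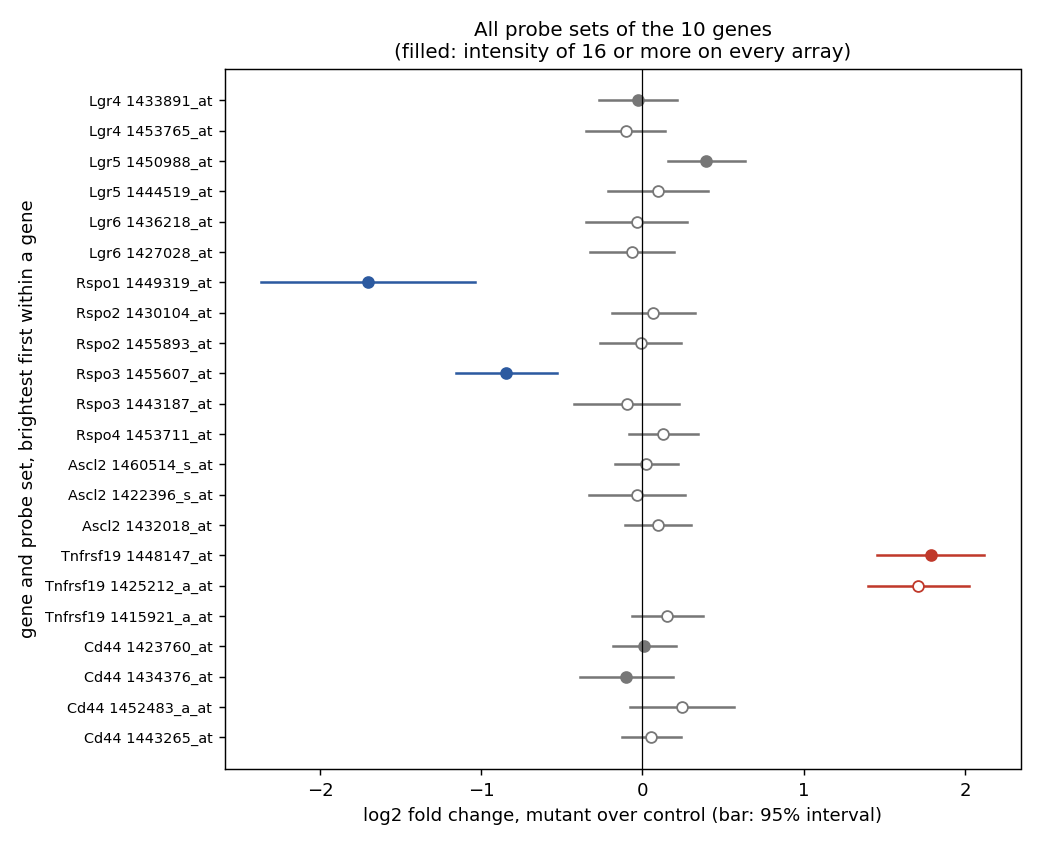
Each line is 1 of the 22 probe sets of the 10 genes (y axis), with the log2 fold change (mutant over control) and its 95% interval on the x axis, from the fit across all probe sets. Red marks a probe set called higher, blue one called lower and grey the rest, and filled points had an intensity of 16 or more on every array. The 4 coloured intervals lie apart from 0, the interval of the bright Lgr5 probe set (0.16 to 0.63) excludes 0 without passing after adjustment, and the other 17 intervals include 0.

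A list around the R-spondin receptor complex held the ligases Znrf3 and Rnf43, the Frizzled receptors, and the Wnt coreceptors Lrp5 and Lrp6. Of 14 measured genes, 5 were higher, 1 was lower and 8 did not pass, with a median log2 fold change of 0.03. Of the 14, 2 lay below an intensity of 16 on all arrays. Among all genes 5.61% were higher and 6.36% lower. Znrf3, the ligase that clears Frizzled receptors and is itself a target of β-catenin, had log2 intensities of 5.70, 5.96 and 5.48 in the control and of 6.64, 6.70 and 6.54 in the mutant uterus, with a log2 fold change of 0.91 (limma adjusted p = 0.00521, standard error 0.13). Its relative Rnf43 rose from 4.65 ± 0.23 to 5.54 ± 0.26 (SD, n = 3 arrays each), a log2 fold change of 0.89 (limma adjusted p = 0.014, standard error 0.16). The groups were apart for both ligases. Among the Frizzled receptors for Wnt proteins, Fzd1, Fzd10 and Fzd4 rose by 0.70, 0.63 and 0.46 on the log2 scale, and Fzd5 fell by 0.88 (limma adjusted p = 0.000619, standard error 0.07). The calls were lost without control replicate 1 for Rnf43 (0.93, adjusted p = 0.0506), without control replicate 1 or mutant replicate 2 or 3 for Fzd1 (0.60 to 0.77, adjusted p of 0.0522 to 0.0705), and without any array but mutant replicate 3 for Fzd4 (0.40 to 0.53, adjusted p of 0.057 to 0.0949). With the mean of all probe sets Fzd4 and Fzd10 did not pass (0.24 and 0.30).

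Of 15 measured genes known from intestinal stem cells, 1 was higher, 1 was lower and 13 did not pass, with a median log2 fold change of -0.15. These counts were near the shares over all genes (5.61% higher and 6.36% lower). Axin2, a scaffold of the complex that degrades β-catenin and a target of the pathway in many tissues, had log2 intensities of 6.26, 5.94 and 5.88 in the control and of 8.45, 8.82 and 8.65 in the mutant uterus. Its log2 fold change was 2.61 (limma adjusted p = 0.000107, standard error 0.14). Lrig1, a membrane protein that limits ErbB receptors and marks epithelial stem cells, had a log2 fold change of -1.41 (limma adjusted p = 0.00793, standard error 0.22). The 13 genes that did not pass had values from -0.39 for Slc12a2 to 0.63 for Prom1, and 3 of the 15 lay below an intensity of 16 on all arrays.

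Of 8 measured genes listed around CD44, 2 fell, none rose and the remaining 6 did not pass, with a median of -0.22. Has1, Has2 and Has3, enzymes that make its ligand hyaluronan, lay below an intensity of 16 on all arrays. A change in these 3 may be understated. Ezr, which ties CD44 to the actin cytoskeleton, had a log2 fold change of -0.63 (limma adjusted p = 0.0204, standard error 0.13). Mmp14, a membrane protease that cleaves CD44, had one of -0.48 (limma adjusted p = 0.034, standard error 0.11). Ezr did not pass when any 1 control replicate or mutant replicate 2 was left out (-0.67 to -0.51, adjusted p of 0.0534 to 0.063), nor did Mmp14 when any 1 control replicate or mutant replicate 2 or 3 was (-0.54 to -0.40, adjusted p of 0.053 to 0.127). Over the 37 genes of these lists together, 6 were higher and 4 were lower, where 5.61% of all genes were higher and 6.36% lower. Without control replicate 2 the counts over the 37 genes were 5 and 2.

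**Figure D3:**
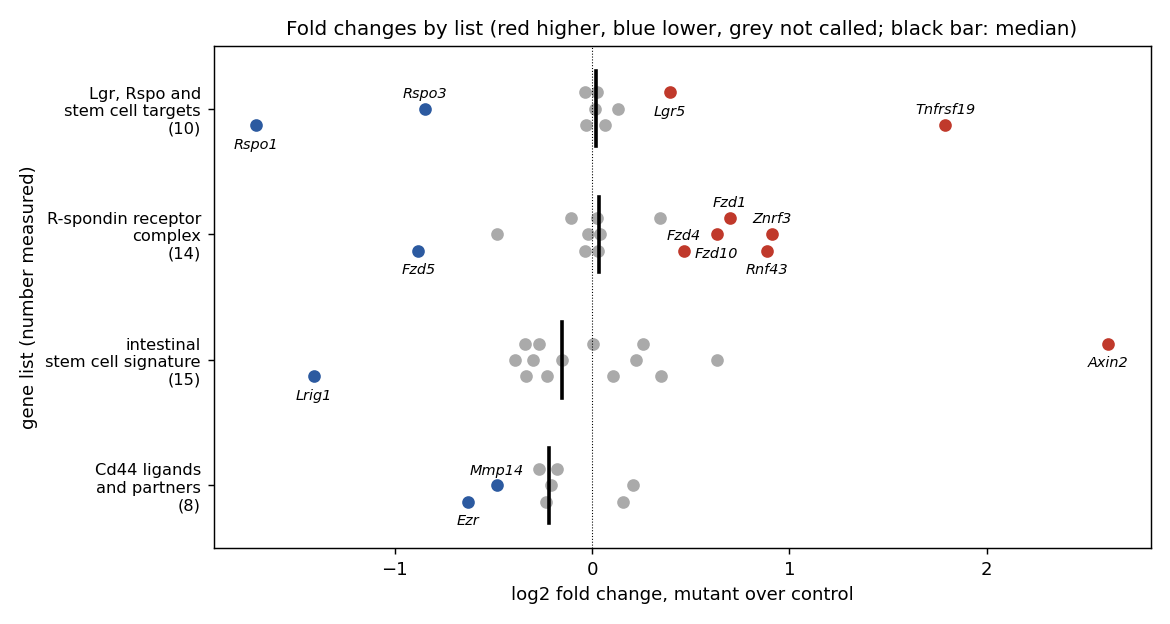
Genes are placed by log2 fold change, mutant over control (x axis), within the lists on the y axis (number measured in brackets). Points are red where higher, blue where lower and grey where the test was not passed, and a black bar marks the median of a list, from -0.22 to 0.03. Tnfrsf19 (1.79) and Axin2 (2.61) lie farthest to the right and Rspo1 (-1.70) and Lrig1 (-1.41) farthest to the left.

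The size of the differences varied between the mutant arrays. Relative to the control mean, Rspo1 differed by -0.95 in mutant replicate 1 and by -1.89 and -2.27 in replicates 2 and 3, and Rspo3 by -0.61, -1.03 and -0.89. Tnfrsf19 differed by 1.55, 1.90 and 1.91, and Lgr5 by 0.32, 0.41 and 0.45. For these 4 genes mutant replicate 1 was thus nearest to the controls, at 45.8% of the mean difference of the other two for Rspo1, 64.0% for Rspo3, 75.0% for Lgr5 and 81.5% for Tnfrsf19. Of the 10 called genes of the pathway lists, 6 had the same array nearest to the controls, among them Rnf43 (0.63, 1.15 and 0.88) and Axin2 (2.42, 2.80 and 2.62). The other 4 did not, and they were Znrf3 (0.93, 0.98 and 0.82), Fzd4 (0.49, 0.59 and 0.32), Fzd5 (-0.90, -0.85 and -0.89) and Ezr (-0.64, -0.86 and -0.39). Without both control replicate 2 and mutant replicate 1, 2 of the 10 genes were higher and 2 lower, as with all arrays, and the log2 fold changes were -2.0 for Rspo1, -0.86 for Rspo3, 2.02 for Tnfrsf19 and 0.53 for Lgr5.

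**Figure D4:**
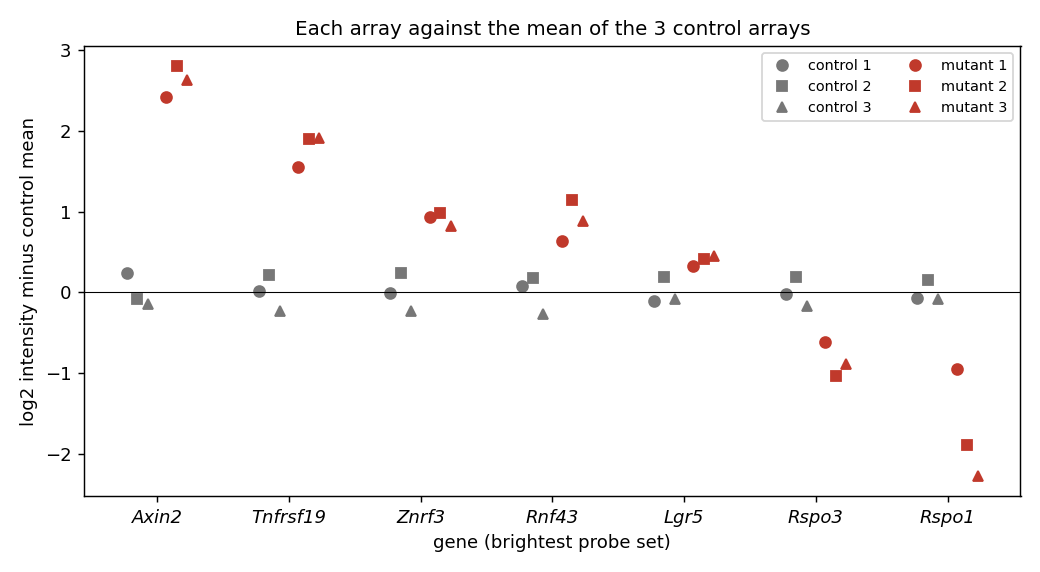
The y axis is the log2 intensity of an array minus the mean of the 3 control arrays, for the 4 called genes of the family and for Axin2, Znrf3 and Rnf43 (x axis); grey is control, red is mutant, and circles, squares and triangles are replicates 1, 2 and 3. Mutant replicate 1 lies nearest to 0 among the mutant arrays for each gene shown except Znrf3, where replicate 3 does, at 0.82.

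Over the 6 arrays, the levels most like those of Tnfrsf19 among 10791 other genes that reached an intensity of 16 were those of Prkg2, Wnt16, Rbfox3, 2700046A07Rik and Hoxd11, with Pearson's r of 0.9998 to 0.9985. Those most like Rspo1 were Gdf10, Cavin1, Naca, Svip and Nfix, with r of 0.9983 to 0.997. These are descriptions over 6 arrays in 2 groups, picked as the highest of many, and the difference between the groups enters each r. The genes like Tnfrsf19 had log2 fold changes of 0.48 to 3.41, and those like Rspo1 of -1.47 to -0.21.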

How the data were processed

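Array values of uterine RNA from 3 control and 3 mutant samples were analysed. The authors deposited 1 intensity per probe set on a linear scale, from 1.99 to 10886.56. The submitters' processing notes name RMA, whose background correction and scaling can compress dim values; the sources used here give no version. Values were floored at 1 (none lay lower) and log2 was taken. Of 45037 probe sets, 34945 had 1 gene symbol in GEO's platform annotation and gave 18193 genes, each read by its probe set with the highest mean log2 value.

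The groups were set against each other across all genes in limma 3.58.1 under R 4.3.3, with lmFit and eBayes and no covariate, with Benjamini-Hochberg adjustment and a threshold of 0.05. Errors are SDs or limma's standard errors. The script was tested on simulated data. The 10 genes, the lists (cell cycle genes added last) and the alternatives were chosen with earlier results of these data known. Named were all 10 genes, list genes past the threshold (Slc12a2 and Prom1, the ends of a range, were added after their values were seen), and the 5 genes most like the largest rise and the largest fall. The test design had been written for log2 values and was applied to log2 of the linear intensities. Some genes of the lists, among them Ephb2, Spp1, Plin1 and Cfd, were not analysed here. Alternatives were other scalings, a floor of 16, a filter on the lowest 40% of genes, other ways to read a gene from its probe sets, an intensity trend, array weights, a replicate block, the methods' t-test and leaving out arrays. The methods name Student's t-test for data with 2 groups in general and no test for the arrays. Its Benjamini-Hochberg adjustment was added here. No label gives a batch or scan date. The number of arrays limits the precision. Promoter sequences are RefSeq's (GRCm38.p6).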

Additional observations from a re-analysis of the deposited data

How the results depend on the processing

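Tnfrsf19 and Rspo3 kept their direction in every alternative tried and Rspo1 and Lgr5 did too, and Tnfrsf19 stayed past the threshold in all of them but the methods' t-test. With that test, which takes the spread of each gene alone, 0 genes were higher and 0 lower among the 10 after adjustment (2 and 2 at an unadjusted p under 0.05), against 2 and 2 with limma. Its values were 1.79 for Tnfrsf19 (adjusted p = 0.051), 0.40 for Lgr5, -1.70 for Rspo1 and -0.84 for Rspo3, and over all genes it called 105 higher and 39 lower, against 1021 and 1157, over the 22 probe sets 0 and 0, and over the 37 list genes 1 and 1. Lgr5 lost its call with median centring (0.39), with the mean of probe sets (0.25), with all probe sets adjusted together (0.40, adjusted p = 0.0549) and with a block for the replicate number (0.40, adjusted p = 0.0548), each of which left 1 higher gene. With genes called by an unadjusted p under 0.05 and a fold over 1.5, 1 of the 10 was higher and 2 were lower, and 744 of all genes were higher and 757 lower. With the mean of probe sets Rspo3 (-0.47) also lost its call, leaving 1 lower gene. Array weights turned the sign of Lgr4 (0.0039) and Lgr6 (0.0342) and gave 7 lower list genes against 4. On leaving out each array in turn, 1 to 2 of the 10 genes were higher and 1 to 2 lower, 2 to 3 probe sets higher and 1 to 2 lower, 3 to 6 list genes higher and 2 to 5 lower, and 480 to 971 of all genes higher and 372 to 1139 lower. The log2 fold changes ran from -0.0782 to 0.0564 for Lgr4, 0.35 to 0.49 for Lgr5, -0.12 to 0.12 for Lgr6, -2.08 to -1.42 for Rspo1, -0.0357 to 0.13 for Rspo2, -0.0227 to 0.0744 for Ascl2 and -0.0383 to 0.0436 for Cd44. Without control replicate 2 and mutant replicate 1, Lgr4 stood at 0.12, Lgr6 at -0.15 and Lgr5 at 0.53. The cause of these changes was not tested. The samples were taken to share only a replicate number, not a pairing. Deviations from the group means correlated at 0.01, 0.21 and 0.16 between samples of the same number. Control replicate 1 correlated best with mutant replicate 3 (0.11), while control replicates 2 and 3 correlated best with the mutant replicate of their own number. These values do not settle whether samples were paired. With the number as a block, 966 genes were higher and 1085 lower, and of the 10 genes only Lgr5 changed its call. With a floor of 16, Lgr6, Rspo2, Rspo4 and Ascl2 were constant, and with the lowest 40% of genes left out Lgr6, Rspo2 and Rspo4 were dropped, so these gave no value there.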
